A study of Mus musculus with 5 samples.

Results

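The genes described here make, move and dispose of cholesterol, and they were taken by symbol from a list of 35: enzymes of synthesis, regulators of the sterol response, genes of uptake and intracellular transport, and genes of efflux, storage and turnover. All 35 were found among the 55471 gene identifiers of the count table, and all 35 had enough counts to be tested, of 16052 genes tested in all. The data are messenger RNA counts from the whole spinal cord of male C57BL/6J mice, 3 months old and at rest, with 2 libraries from mice homozygous for an Lhx1os knockout (KO, Lhx1os -/-) and 3 from wild type mice (WT). The Lhx1os gene (ENSMUSG00000087211; GRCm38 chr11:84525660-84535831, plus strand) gives a long non-coding RNA. The KO line was made in fertilised eggs with Cas9 mRNA, a single guide against the second exon and a donor oligonucleotide that carries a synthetic polyadenylation signal and polymerase-destabilising repeats. The number of founder lines is not given. Each library held 15973063 to 19437533 counts, and Lhx1os itself had 13 and 11 counts in the KO libraries, against 56, 66 and 51 in the WT libraries. Its log2 ratio was −2.13 (SE 0.28), with an adjusted p of 0.0589 in edgeR and 0.0257 in edgeR with robust dispersion. The adjusted p was 0.00195 in DESeq2 and 0.0905 in limma-voom. Separate animals are not stated for the libraries, so p-values measure the spread between these libraries, which may be partly technical.

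The nervous system makes nearly all of its own cholesterol, because lipoproteins of the blood do not cross the blood-brain barrier. In the spinal cord most of it lies in myelin, which oligodendrocytes build, and astrocytes supply further sterol to neurons on lipoprotein particles. When sterol in the endoplasmic reticulum (ER) runs low, the escort protein encoded by Scap carries the transcription factors encoded by Srebf1 and Srebf2 to the Golgi, where they are cut and released to switch on the synthesis genes. When sterol is plentiful, the proteins encoded by Insig1 and Insig2 hold them in the ER, and oxysterols activate the liver X receptors (LXRs, encoded by Nr1h2 and Nr1h3), which switch on efflux genes.

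No cholesterol gene passed an adjusted p of 0.05 between KO and WT spinal cord in edgeR's quasi-likelihood test, where 3 of the 16052 genes (0.0187%) were called. Levels were close between the genotypes: the fitted folds of the 35 genes lay between the 0.924 of Abcg1 and the 1.22 of Srebf1, and the 95% interval of the fold stayed within 1.5-fold either way for 34 of 35, the exception being the weakly expressed Nr1h3. At an unadjusted p under 0.05 there were 5 genes, all with higher values in KO: Srebf1, Insig1, Mvd, Stard4 and Srebf2. That is 14.3% of the list, where 7.57% of all genes reached such a p and 3.49% of all genes did so with higher values in KO and 4.07% with lower values. Without WT replicate 1 the count was 6 of 35, where 9.28% of all genes reached such a p. It was 6 without WT replicate 2 (10.2% of all genes) and 4 without WT replicate 3 (4.9% of all genes). Leaving out a KO library leaves 1 in that group, so no count is given for it. How far the 14.3% rests on either KO library is therefore not shown. The list was chosen with earlier results of these data known, so its share is a description and not a test. DESeq2 called 0 of the 35 (0.265% of the genes with an adjusted p were called), with 3 at an unadjusted p under 0.05 (4.22% of all genes), and limma-voom called 0 (0.00623% of all genes), with 5 at such a p (7.38% of all genes). In edgeR with robust dispersion 0 were called (0.0748% of all genes). Over the list 24 genes had a positive log2 fold change and 11 a negative one, with a median of 0.046, or 0.005 without WT replicate 2, against 51.3% positive and a median of 0.004 over all genes tested. In 12 genes (34.3%) the KO and WT libraries did not overlap, 9 with KO above and 3 with KO below, where 24.9% of all genes did not overlap, 12.9% with KO above and 12% with KO below. The libraries are bulk tissue, so fewer cells of a type and less RNA per cell cannot be told apart.

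The genes differed far more among themselves than between genotypes. Reads per kilobase of annotated exon, scaled to library size (RPKM), the scale on which genes can be compared, were highest for Scd2, a stearoyl-CoA desaturase of the nervous system, at 779 ± 14.2 RPKM in KO (SD, n = 2) and 767 ± 40.3 RPKM in WT (SD, n = 3). Hmgcs1, the synthase that makes HMG-CoA, came next with 116 ± 1.51 RPKM in KO and 118 ± 11.5 RPKM in WT. Insig1 followed at 51.3 ± 1.04 RPKM in KO and 43.1 ± 3.33 RPKM in WT, ahead of the endocytic receptor gene Lrp1 at 39.4 ± 0.427 RPKM in KO and 37.7 ± 4.51 RPKM in WT. Fdft1, Cyp51 and Sc5d lay between 33.0 and 35.2 RPKM in KO and between 33.2 and 35.3 RPKM in WT. In WT these differences lay within the SDs of 2.14 to 3.35 RPKM. In KO Fdft1 at 35.2 ± 0.086 RPKM stood above Sc5d at 33.0 ± 0.276 RPKM. In WT the order was the reverse, with 33.2 ± 2.14 RPKM for Fdft1 and 34.4 ± 3.35 RPKM for Sc5d. The SDs leave out errors of exon length and of Fdft1 exon bases opposite another gene (18.31%), so the order of these genes is uncertain. The lowest levels belonged to Nr1h3 with 1.93 ± 0.235 RPKM in KO and 1.79 ± 0.432 RPKM in WT, and to Mylip with 3.50 ± 0.413 RPKM in KO and 3.32 ± 0.361 RPKM in WT. Nr1h2, the other LXR gene, stood at 18.1 ± 0.843 RPKM in KO and 16.1 ± 1.08 RPKM in WT, so that this LXR was the more abundant in every group. Exon lengths are the union over all annotated transcripts, which understates genes with long, rarely used exons such as Lss, with 10787 bases.

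**Figure D1:**
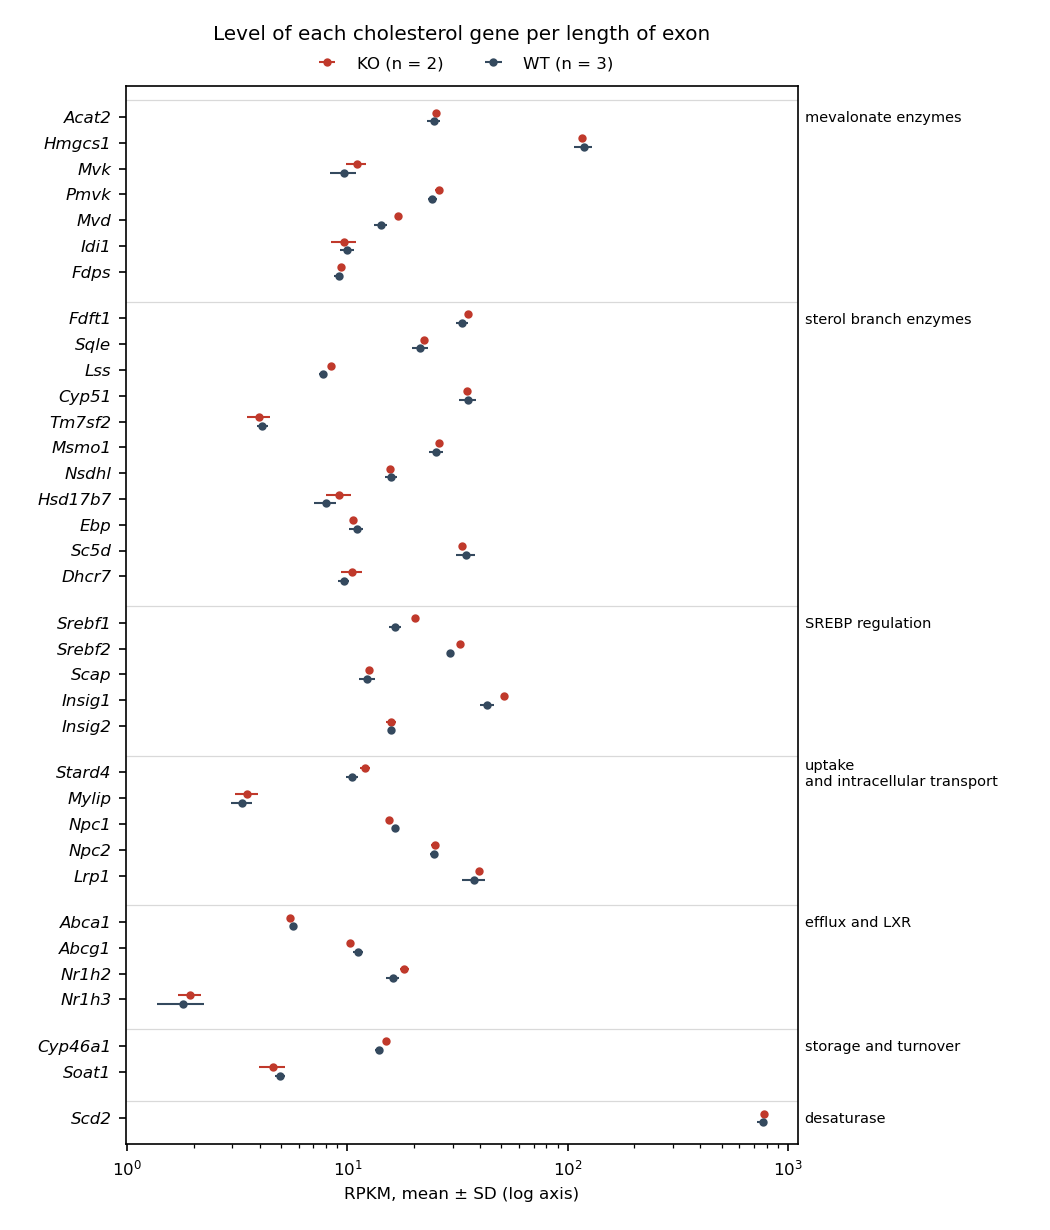
Level of each of the 35 genes per kilobase of annotated exon, on a log axis, as the mean with its SD in KO (red, n = 2) and WT (dark, n = 3) spinal cord, grouped by role. Scd2 at 779 RPKM in KO and 767 RPKM in WT stands far to the right of the other genes, and the points of the genotypes lie close together for every gene.

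The mevalonate enzymes, which build isoprenoid units from acetyl-CoA, had 5 of 7 genes with higher values in KO, a median log2 fold change of 0.03 and 1 gene at an unadjusted p under 0.05. That gene was Mvd (GRCm38 chr8:122433601-122443422, minus strand), the decarboxylase that makes isopentenyl pyrophosphate. On the scale of counts scaled to library size (CPM), it had 31.28 and 31.44 CPM in the KO libraries, against 28.20, 24.67 and 26.47 CPM in the WT libraries. Both KO libraries lay above all WT libraries, with a log2 ratio of KO to WT (the log2 fold change) of 0.25 (SE 0.09; adjusted p = 0.597). Hmgcs1, by contrast, had 538.9 and 529.1 CPM in the KO libraries, against 587.5, 483.8 and 552.7 CPM in the WT libraries. The KO values lay inside the WT range, and the log2 fold change was −0.02 (SE 0.08), with a 95% interval of the fold from 0.874 to 1.11. The kinase gene Mvk averaged 29.5 ± 3.15 CPM in KO and 25.7 ± 3.57 CPM in WT (log2 fold change 0.20, SE 0.12), and the next kinase gene, Pmvk, 44.5 ± 1.68 CPM in KO and 41.6 ± 1.91 CPM in WT (0.10, SE 0.07). The KO libraries overlapped the WT libraries for both kinases. The log2 fold changes of the thiolase gene Acat2 (0.03, SE 0.07), the isomerase gene Idi1 (−0.06, SE 0.10) and the farnesyl pyrophosphate synthase gene Fdps (0.03, SE 0.08) lay within their errors of 0. Fdps shares 26.71% of its exon bases with another annotated gene on the same strand, Gm43738, which was at 0, so its level is uncertain.

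In the sterol branch, which runs from squalene to cholesterol, 6 of 11 genes had higher values in KO and 0 reached an unadjusted p under 0.05, with a median log2 fold change of 0.05. The lanosterol synthase gene Lss had 89.91 and 90.89 CPM in the KO libraries, against 87.05, 80.10 and 84.34 CPM in the WT libraries. Its groups did not overlap, with a log2 ratio of 0.11 (SE 0.06; adjusted p = 0.721). Fdft1, the squalene synthase gene, had 149.1 and 148.6 CPM in the KO libraries, against 144.5, 130.1 and 146.7 CPM in the WT libraries, a log2 fold change of 0.09 (SE 0.07). The KO libraries lay above the WT libraries here too, by less than 2 CPM at the nearest pair, and 18.31% of the Fdft1 exon bases lie opposite exons of the far more abundant Ctsb, at 764 CPM. Hsd17b7, a ketosteroid reductase gene of the pathway, had the largest fold of the branch, with 51.21 and 42.63 CPM in the KO libraries, against 45.52, 35.96 and 40.26 CPM in the WT libraries. The groups overlapped, and the log2 fold change was 0.21 (SE 0.11; adjusted p = 0.708). Dhcr7, whose enzyme carries out a closing reduction to cholesterol, averaged 61.3 ± 6.88 CPM in KO and 55.9 ± 3.40 CPM in WT (0.13, SE 0.09), and Sqle, the epoxidase gene, 124 ± 2.89 CPM in KO and 119 ± 10.2 CPM in WT (0.06, SE 0.08). The remaining 6 genes, the demethylase gene Cyp51, the oxidase gene Msmo1, the dehydrogenase gene Nsdhl, the isomerase gene Ebp, the desaturase gene Sc5d and the reductase gene Tm7sf2, had log2 fold changes from −0.06 to 0.05, each within its standard error of 0. Tm7sf2 shares 12.08% of its exon bases with Vps51 on the same strand, and its level is uncertain.

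The synthesis enzymes shared an order of libraries, with a wider spread among the WT libraries than between the genotypes. Averaged over the 18 enzymes and set against the WT mean, log2 levels were 0.09 and 0.02 in the KO libraries, against 0.09, −0.09 and −0.01 in the WT libraries. WT replicate 2 was the lowest of the 5 libraries for 13 of the 18 enzymes and WT replicate 1 the highest for 9, where WT replicate 2 was the lowest for 17.8% and WT replicate 1 the highest for 19.6% of all genes tested. WT replicate 1 exceeded WT replicate 2 in 17 of 18 enzymes, with a median difference of 0.18 on the log2 scale, while 47.9% of all genes did so. KO replicate 1 exceeded WT replicate 1 in 9 of 18 enzymes and KO replicate 2 exceeded it in 3 of 18, whereas against WT replicate 2 the counts were 17 and 16 of 18. The median log2 fold change of the enzymes was 0.04, with 11 of 18 positive, and without WT replicate 2 it was −0.006, with 8 of 18 positive. All 8 oligodendrocyte markers were detected, and their summed level was 32170 and 31860 CPM in the KO libraries and 30670 to 36060 CPM in the WT libraries. Their mean log2 levels, set against WT, were 0.03 and −0.003 in the KO libraries, against 0.06, −0.09 and 0.02 in the WT libraries. WT replicate 1 was the highest WT library and WT replicate 2 the lowest, as for the enzymes. Of these markers 4 of 8 had higher values in KO. The 6 motor neuron markers had the same highest and lowest WT libraries with a wider spread, at 0.47 and −0.07 in the KO libraries, against 0.38, −0.22 and −0.17 in the WT libraries. Other marker lists had other orders of the WT libraries. In WT replicates 1, 2 and 3 the meningeal fibroblast markers stood at −0.672, 0.192 and 0.479, and the Schwann cell markers at −0.404, 0.105 and 0.299. The astrocyte markers, at 0.014, −0.079 and 0.065, were lowest of WT in WT replicate 2 but highest in WT replicate 3. The part of any cell type in the enzyme levels was not tested.

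**Figure D2:**
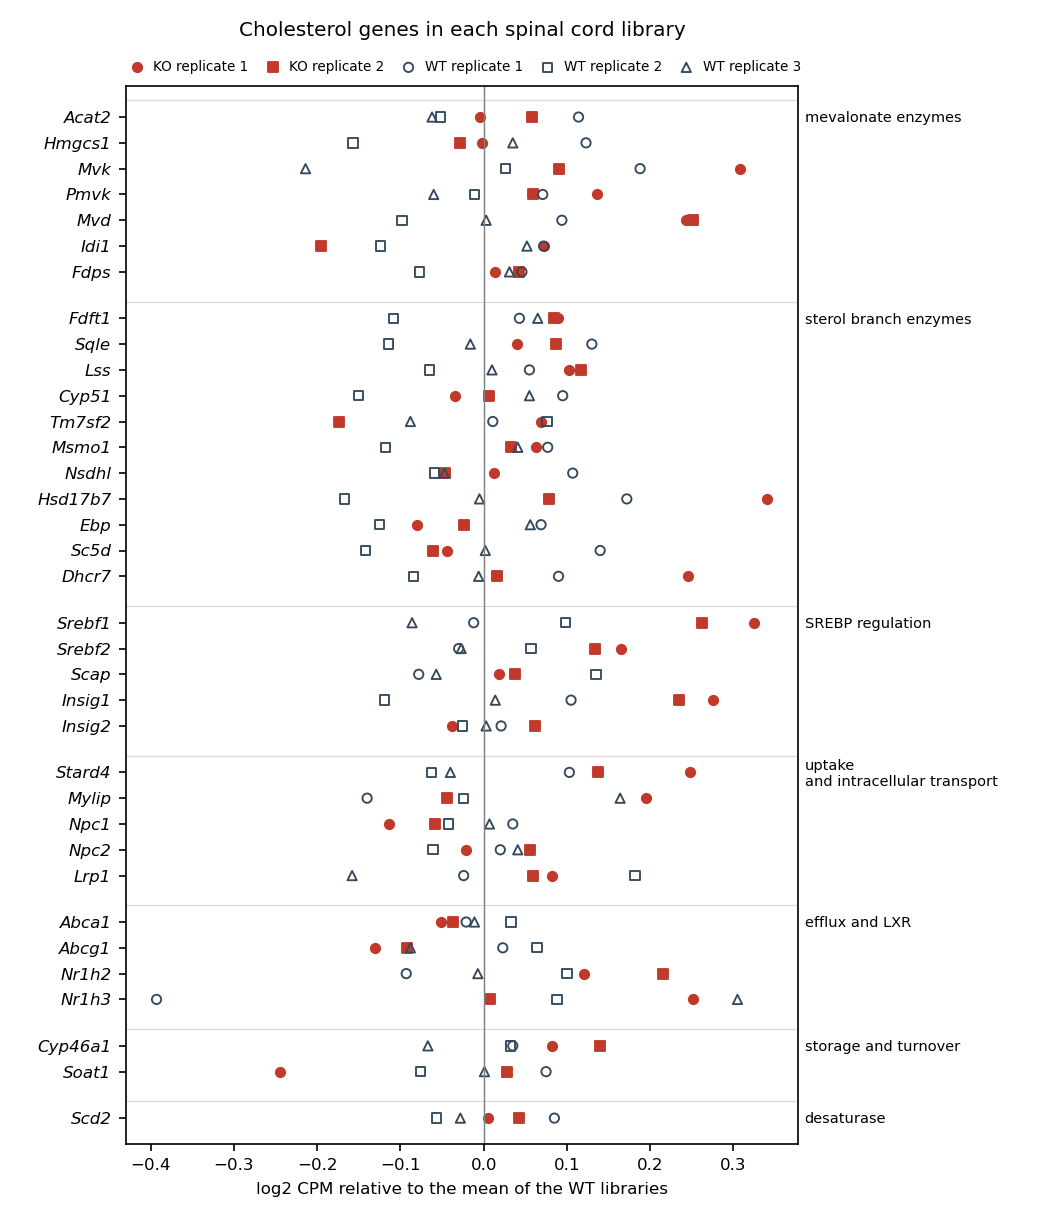
Level of each of the 35 genes in each library, as log2 CPM relative to the mean of the WT libraries, with KO libraries as filled red and WT libraries as open dark symbols. Among the enzymes the open squares of WT replicate 2 lie to the left in 13 of 18 genes. Both red symbols lie to the right of all open symbols in 9 of the 35 genes. These are Srebf1, Srebf2, Insig1, the enzymes Mvd, Fdft1 and Lss, and Stard4, Nr1h2 and Cyp46a1.

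Among the regulators of the sterol response 3 of 5 genes had an unadjusted p under 0.05 in edgeR, all with higher values in KO. Of all genes tested 7.57% reached such a p, and 3.49% did so with higher values in KO. The KO and WT libraries did not overlap in the same 3 genes, where 24.9% of all genes did not overlap. All 5 regulators had positive log2 fold changes, with a median of 0.15, where 51.3% of all genes were positive. These genes were chosen with earlier results of these data known, so the shares are a description and not a test. In the further list of SREBP processing and sterol-regulated degradation, described below, 7 of 10 genes had lower values in KO. Srebf1 (GRCm38 chr11:60199089-60222581, minus strand), whose main form in most tissues drives fatty acid synthesis genes and which is itself an LXR target, had 116.3 and 111.4 CPM in the KO libraries, against 92.11, 99.46 and 87.48 CPM in the WT libraries. Both KO libraries lay above all WT libraries, 1.22-fold by the fit (95% interval 1.10 to 1.36), with a log2 ratio of 0.29 (SE 0.07; unadjusted p = 0.00172) and an adjusted p of 0.342 in edgeR and 0.178 in DESeq2. Of its exon bases 1.93% lie opposite exons of Rai1, and its isoforms were not counted apart. Srebf2 (chr15:82147181-82205379, plus strand), the chief activator of the cholesterol genes, had 236.2 and 231.1 CPM in the KO libraries, against 206.4, 219.1 and 206.7 CPM in the WT libraries. The groups again did not overlap, and the log2 fold change was 0.15 (SE 0.06; adjusted p = 0.626). Insig1 (chr5:28071363-28078662, plus strand), which is a target of the SREBP factors as well as their brake, had 161.0 and 156.5 CPM in the KO libraries, against 142.9, 122.4 and 134.2 CPM in the WT libraries. Its fold was 1.19 (95% interval 1.07 to 1.33), with an adjusted p of 0.476 in edgeR and 0.401 in DESeq2. Insig2, the related brake whose transcription is known in liver to answer to other signals, averaged 54.8 ± 2.71 CPM in KO and 54.4 ± 0.87 CPM in WT (0.01, SE 0.07), and Scap 93.3 ± 0.861 CPM in KO and 91.7 ± 7.65 CPM in WT (0.02, SE 0.08). For these genes the groups overlapped. Averaged over the 5 regulators in the same way, log2 levels were 0.15 and 0.15 in the KO libraries, against 0.00, 0.03 and −0.03 in the WT libraries. This average did not have the order of WT libraries seen in the enzymes, but its genes differed. Insig1 and Insig2 had that order, with WT replicate 1 the highest WT library and WT replicate 2 the lowest. Srebf1, Srebf2 and Scap were instead highest of the WT libraries in WT replicate 2.

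**Figure D3:**
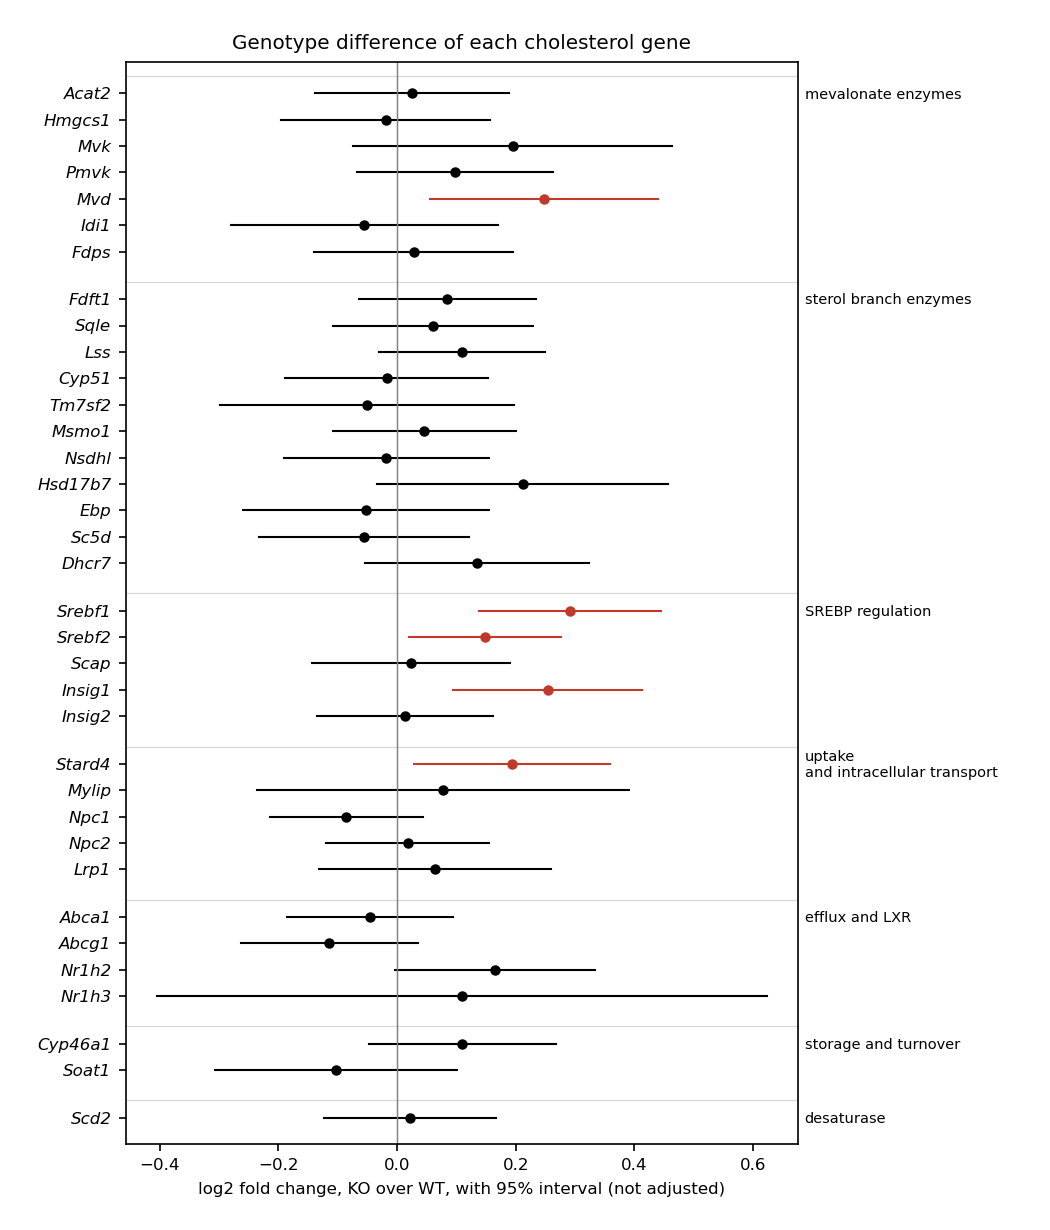
Log2 fold change of each gene, KO over WT, with its 95% interval from edgeR's quasi-likelihood fit, unadjusted for the number of genes. The 5 genes in red have intervals that leave out 0, all on the positive side, and none of them passed the adjusted threshold.

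Promoter sequence was available from RefSeq on GRCm38.p6 for 28 of the 35 genes, in 37 windows that run from 250 bases before to 50 bases after a start site. The genes with no window there were Fdps, Fdft1, Sqle, Stard4, Npc1, Abcg1 and Scd2. The window of Hmgcs1 is shown because it was the 1 among the 37 with the sterol regulatory element in its classical letters, those of Insig1 and Mvd because these are SREBP target genes of small p-value. Capitals mark the sterol regulatory element (TCACNCCAC), the CCAAT box bound by the partner factor NF-Y (CCAAT) and the E-box (CACGTG), which SREBP factors can also bind, in either orientation. The Hmgcs1 window is chr13:119690101-119690400 on the plus strand, that of Insig1 chr5:28071162-28071461 on the plus strand and that of Mvd chr8:122443373-122443672 on the minus strand.
Hmgcs1: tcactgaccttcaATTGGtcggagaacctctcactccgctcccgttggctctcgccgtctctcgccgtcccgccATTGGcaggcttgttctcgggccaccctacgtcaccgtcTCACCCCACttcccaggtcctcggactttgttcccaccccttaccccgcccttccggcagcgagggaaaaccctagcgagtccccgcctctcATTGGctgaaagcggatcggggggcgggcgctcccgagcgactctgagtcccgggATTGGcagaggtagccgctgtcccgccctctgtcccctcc
Insig1: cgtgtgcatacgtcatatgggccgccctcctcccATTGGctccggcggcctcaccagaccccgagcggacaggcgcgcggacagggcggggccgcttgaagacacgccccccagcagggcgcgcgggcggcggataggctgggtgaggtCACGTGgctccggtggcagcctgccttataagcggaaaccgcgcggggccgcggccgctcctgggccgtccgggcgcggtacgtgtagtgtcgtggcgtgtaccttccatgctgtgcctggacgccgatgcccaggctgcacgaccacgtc
Mvd: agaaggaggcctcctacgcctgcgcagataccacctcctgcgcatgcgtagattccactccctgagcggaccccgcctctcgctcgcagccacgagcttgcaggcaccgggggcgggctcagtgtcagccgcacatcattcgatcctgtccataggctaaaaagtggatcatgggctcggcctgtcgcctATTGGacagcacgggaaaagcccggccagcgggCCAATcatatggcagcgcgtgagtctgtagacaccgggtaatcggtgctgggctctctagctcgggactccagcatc

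In Hmgcs1 the element began at position −137, counting the start base as 0, with CCAAT boxes at −237, −176, −45 and 10, all in the reverse orientation. Insig1 had a CCAAT box at −216 and an E-box at −101, and Mvd had CCAAT boxes at −60 and −27. Over the 18 windows of the synthesis enzymes, 14 (77.8%) held a CCAAT box, against 37.4% of the 32851 windows in the whole table and 37.3% of those of genes tested. Over the whole list it was in 23 of the 37 windows (62.2%), and in 9 of the 19 windows (47.4%) of genes other than the enzymes. The sterol regulatory element was in 1.24% of all windows and in 1.15% of those of genes tested. The E-box was in 7 of the 37 windows of the list (18.9%), in 7.15% of all windows and in 9.38% of those of genes tested. The GC box bound by Sp1 (GGGCGG) was in 29 of the 37 (78.4%), in 35.7% of all windows and in 59.7% of those of genes tested. Each motif was counted by itself on both strands, matches of different motifs may share bases, and a match to letters does not show binding. Hmgcs1, with the element, had a fold of 0.987, and Insig1 and Mvd, without it in these letters, each had a fold of 1.19. As Insig1 and Mvd were chosen for their small p-values, these folds cannot compare genes with and without the element.

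Among the genes of uptake and intracellular transport, 4 of 5 had positive log2 fold changes. Stard4, a sterol carrier between membranes and an SREBP target, had 69.37 and 64.20 CPM in the KO libraries, against 62.72, 55.88 and 56.76 CPM in the WT libraries. The KO libraries lay above the WT libraries, with a log2 ratio of 0.19 (SE 0.07; unadjusted p = 0.0262; adjusted p = 0.626). Npc1, whose protein lets cholesterol out of lysosomes, had 172.4 and 179.2 CPM in the KO libraries, against 191.1, 181.2 and 187.5 CPM in the WT libraries. Here both KO libraries lay below all WT libraries, with a log2 ratio of −0.09 (SE 0.06; adjusted p = 0.757). Its lumenal partner gene Npc2 averaged 136 ± 5.16 CPM in KO and 135 ± 4.97 CPM in WT (0.02, SE 0.06), with overlapping libraries. Lrp1, a receptor for lipoproteins on neurons and glia, had 703.0 and 692.3 CPM in the KO libraries, against 653.5, 753.5 and 595.5 CPM in the WT libraries, and the KO values lay inside the WT range (0.06, SE 0.09). Mylip, an LXR target that marks lipoprotein receptors for breakdown, averaged 11.3 ± 1.34 CPM in KO and 10.7 ± 1.17 CPM in WT (0.08, SE 0.14).

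The efflux transporter genes of the list, Abcg1 and Abca1, are LXR targets as Srebf1 is. Both had negative log2 fold changes that did not pass the test. The transporter genes examined outside the list, Abcg4 (0.19, SE 0.08), Abca2 (0.07, SE 0.07) and Abca5 (0.01, SE 0.08), had positive ones that did not pass either. Abcg1, a transporter that loads cholesterol onto lipoproteins, had 74.34 and 76.32 CPM in the KO libraries, against 82.71, 85.10 and 76.59 CPM in the WT libraries. Both KO libraries lay below the lowest WT library, in 1 case by less than 1 CPM, and the log2 fold change was −0.11 (SE 0.07; adjusted p = 0.730). Abca1, which starts the loading of apolipoprotein particles, had 56.73 and 57.26 CPM in the KO libraries, against 57.90, 60.12 and 58.30 CPM in the WT libraries, with a log2 ratio of −0.05 (SE 0.06; adjusted p = 0.889). These groups did not overlap either, but they were set apart by less than 1 CPM. The receptor gene Nr1h2 had 58.63 and 62.63 CPM in the KO libraries, against 50.58, 57.83 and 53.68 CPM in the WT libraries, a log2 ratio of 0.17 (SE 0.08; adjusted p = 0.663) with the KO libraries above. Nr1h3, the scarcer receptor gene, averaged 4.86 ± 0.591 CPM in KO and 4.50 ± 1.09 CPM in WT (0.11, SE 0.23), the least precise value of the list. Cyp46a1, the neuronal hydroxylase by which the brain disposes of cholesterol, had 48.33 and 50.32 CPM in the KO libraries, against 46.77, 46.69 and 43.59 CPM in the WT libraries, with a log2 ratio of 0.11 (SE 0.07; adjusted p = 0.745). Soat1, which esterifies cholesterol for storage, averaged 45.1 ± 6.03 CPM in KO and 48.4 ± 2.53 CPM in WT (−0.10, SE 0.09), and KO replicate 1 at 40.79 CPM was the lowest library. Scd2 had 4203 and 4313 CPM in the KO libraries, against 4443, 4027 and 4109 CPM in the WT libraries, and its fold of 1.02 had a 95% interval from 0.918 to 1.12.

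Other genes of sterol and fatty acid metabolism, 71 in 7 lists, were examined in the same fit, and 70 of them had enough counts to be tested. None passed an adjusted p of 0.05 in edgeR, DESeq2 or limma-voom. In edgeR 7 of the 70 (10.0%) had an unadjusted p under 0.05, 4 with higher and 3 with lower values in KO. Of all genes tested 7.57% reached such a p. The KO and WT libraries did not overlap in 16 of the 70 (22.9%), where 24.9% of all genes did not overlap. In the list of SREBP processing and sterol-regulated degradation, 7 of 10 genes had lower values in KO. Erlin2, part of an ER complex that holds SREBP precursors and breaks down other ER proteins, had 62.25 and 62.26 CPM in the KO libraries, against 76.82, 80.05 and 75.91 CPM in the WT libraries. The KO libraries lay well below the WT libraries, with a log2 fold change of −0.32 (SE 0.06) and an adjusted p of 0.193 in edgeR and 0.097 in DESeq2. Pgrmc1, among the more abundant genes of this list, was at −0.12 (SE 0.09), with overlapping libraries. In the fatty acid synthesis list, 8 of 13 log2 fold changes were positive and the synthase gene Fasn, a target of the Srebf1 product, had 560.0 and 549.6 CPM in the KO libraries, against 504.8, 514.1 and 436.9 CPM in the WT libraries (0.19, SE 0.07; adjusted p = 0.626). The groups did not overlap for Fasn, whereas the desaturase gene Scd1 averaged 796 CPM in KO and 801 CPM in WT and the citrate lyase gene Acly 547 CPM in KO and 513 CPM in WT, both with overlapping libraries.

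Of the lipoprotein receptors and lysosomal release genes 6 of 8 had negative log2 fold changes, and Vldlr, a receptor for lipoproteins and reelin, had 93.78 and 90.76 CPM in the KO libraries, against 83.84, 73.87 and 81.26 CPM in the WT libraries (0.21, SE 0.07; adjusted p = 0.560). The most abundant of them were Scarb2 (−0.06, SE 0.07) and Lrpap1 (0.04, SE 0.06), with overlapping libraries. Among the intracellular sterol carriers 10 of 14 were negative. Gramd1b, which carries plasma membrane cholesterol to the ER, averaged 201 ± 0.424 CPM in KO and 177 ± 4.76 CPM in WT (0.18, SE 0.06; adjusted p = 0.520), and Stard3, a tether of endosomes to the ER, 30.8 ± 2.91 CPM in KO and 36.0 ± 2.16 CPM in WT (−0.22, SE 0.09; adjusted p = 0.644). Neither gene had overlapping groups, whereas Osbpl1a, abundant as well, did (−0.07, SE 0.06). In the list of LXR partners and further targets 7 of 9 were positive, among them the transporter gene Abcg4 with 81.39 and 72.07 CPM in the KO libraries, against 71.64, 67.58 and 62.80 CPM in the WT libraries (0.19, SE 0.08; adjusted p = 0.647). Abca2, a lipid transporter gene of oligodendrocytes, was the most abundant, with 860 ± 22.1 CPM in KO and 821 ± 69.6 CPM in WT, and the corepressor gene Ncor1 was at −0.09 (SE 0.07). Of the 6 oxysterol enzymes tested 4 were negative, and Cyp7b1, an oxysterol hydroxylase gene, averaged 7.14 ± 1.09 CPM in KO and 9.44 ± 0.356 CPM in WT (−0.40, SE 0.15; adjusted p = 0.621). Cyp27a1 (0.04, SE 0.09) and Lcat (−0.01, SE 0.09), the most abundant of these, had overlapping libraries. The isoprenoid side branches had 6 of 10 negative values and 0 at an unadjusted p under 0.05, the most abundant being Fnta (−0.13, SE 0.06) and Dhdds (0.06, SE 0.07).

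Markers of other cell types were set beside these values. The 7 astrocyte markers summed to 7249 and 7045 CPM in the KO libraries and 6774 to 7552 CPM in the WT libraries, and the 5 neuron markers to 4304 and 4178 CPM in the KO libraries and 3935 to 4216 CPM in the WT libraries. Of the astrocyte markers 2 of 7 had higher values in KO, and of the neuron markers 4 of 5. The 6 oligodendrocyte precursor markers summed to 538.7 and 511.7 CPM in the KO libraries and 558.7 to 583.2 CPM in the WT libraries, with no overlap, and 2 of 6 had higher values in KO. Among them Gpr17, a marker of precursors on the way to myelination, had 39.87 and 48.76 CPM in the KO libraries, against 67.30, 69.47 and 67.29 CPM in the WT libraries. The KO libraries lay below the WT libraries (log2 ratio −0.62, SE 0.09), at adjusted p-values of 0.0603 in edgeR and 1.18e-05 in DESeq2. In DESeq2 the astrocyte marker Gjb6 (−0.35; adjusted p = 0.017, against 0.176 in edgeR) and the endothelial marker Slc2a1 (−0.47; adjusted p = 0.00202, against 0.270 in edgeR) also passed. These markers were named after their values were seen. The 6 meningeal fibroblast markers summed to 169.0 and 178.7 CPM in the KO libraries, against 138.2, 280.9 and 336.4 CPM in the WT libraries, and 0 of 6 had higher values in KO. The 6 microglia markers summed to 336.2 and 305.0 CPM in the KO libraries and 317.9 to 367.7 CPM in the WT libraries, with 0 of 6 higher in KO. The 6 motor neuron markers summed to 330.5 and 230.0 CPM in the KO libraries and 190.8 to 303.5 CPM in the WT libraries, with 5 of 6 higher in KO. The 4 Schwann cell markers summed to 159.0 and 262.1 CPM in the KO libraries and 123.1 to 304.3 CPM in the WT libraries, with 0 of 4 higher in KO. The 4 endothelial markers summed to 328.3 and 237.0 CPM in the KO libraries and 292.5 to 378.2 CPM in the WT libraries, with 2 of 4 higher in KO. Skeletal muscle markers, 4 of 4 higher in KO, were scarce and stood out in KO replicate 1, with sums of 11.53 and 4.126 CPM in the KO libraries and 2.032 to 3.927 CPM in the WT libraries. Of the markers in all these lists, the muscle gene Ckm was at 0 in WT replicate 3 and the others were detected in every library. The part of these differences in the levels of the cholesterol genes was not tested. The liver gene Cyp7a1 had 0 counts in every library and Alb averaged 0.0307 CPM in KO and 0.0602 CPM in WT.

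**Figure D4:**
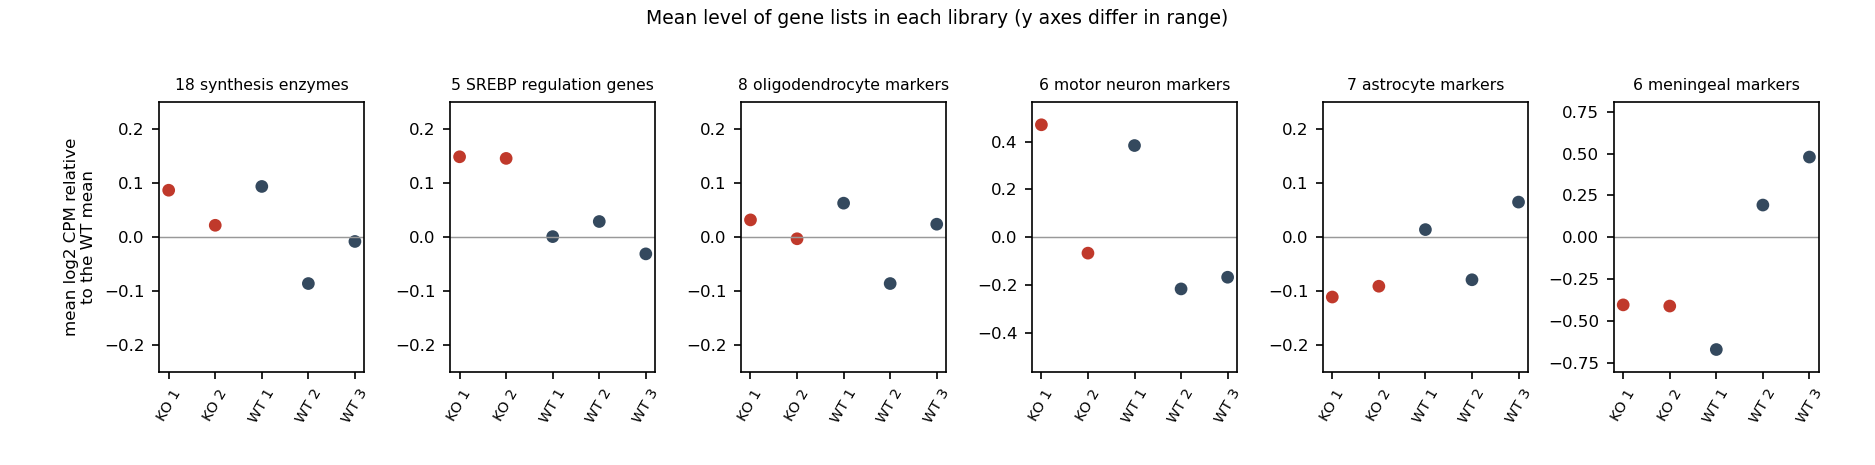
Mean log2 CPM of gene lists in each library, relative to the mean of the WT libraries, with KO libraries in red to the left of the WT libraries, and y axes of different range. The enzymes are lowest in WT replicate 2, as are the oligodendrocyte markers and the motor neuron markers. The meningeal markers are lowest in WT replicate 1. The mean of the regulators lies at 0.15 in both KO libraries and between −0.03 and 0.03 in the WT libraries. Of the regulators, Insig1 and Insig2 by themselves had their lowest WT level in WT replicate 2.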

How the data were processed

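The authors deposited raw counts of reads per gene, without normalization, in 1 table of 5 libraries. Per the labels' protocols, RNA came from snap-frozen, powdered tissue and libraries from a stranded mRNA kit, which selects polyadenylated RNA. Per the submitters' processing notes, cutadapt, Trimmomatic, STAR 2.5.2b, HTSeq and GRCm38 were used. The sources used here name no annotation release or strand setting. Antisense overlaps therefore stay uncertain. Groups came from sample titles. Replicates of a genotype differed by more than sampling noise (chi-square per degree of freedom 4.23 to 7.98).

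Symbols, places and exon lengths came from GENCODE M21 (GRCm38). Genes were filtered with filterByExpr (minimum count 10, minimum total 15), scaled by TMM (factors 0.982 to 1.01) and compared with edgeR 4.0.16 in R 4.3.3 (quasi-likelihood F test, all 5 libraries, no covariates, Benjamini-Hochberg over all genes, threshold 0.05). Fitted log2 ratios carry a standard error (SE), and intervals are at 95%. CPM and RPKM are TMM scaled; log2 levels of lists use a prior count of 2. The fit was tested on simulated data. Alternatives used DESeq2 1.42.0, limma 3.58.1, other factors and filters, robust dispersion, a replicate block and each library left out. All list members were described, and of the other genes those with an unadjusted p under 0.05 or the most abundant; 1 gene so chosen is not reported here. Members and lists were chosen with earlier results of these data known. The comparison of protein pairs that had been planned was not made.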

Additional observations from a re-analysis of the deposited data

How the results depend on the processing

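No gene of the list passed under any of the 13 alternatives; the lowest adjusted p was 0.0861, for Srebf1 without the count filter. Over the 455 values, 425 kept their direction and 30 turned; 18 of the 35 genes turned under no alternative. With 1 library left out the range was, for the leading genes, Srebf1 (0.25 to 0.34 on the log2 scale), Insig1 (0.20 to 0.31), Mvd (0.20 to 0.30), Stard4 (0.13 to 0.25) and Srebf2 (0.13 to 0.18). The count of all genes called, 3, was 6 with DESeq2 size factors, 96 without the filter, 12 with robust dispersion, 1 with limma-voom, 40 with DESeq2 and 25 with the replicate block, and 0 (without KO replicate 1) to 58 (without WT replicate 1) with 1 library left out, 1 without WT replicate 2 and 10 without WT replicate 3. Genes of the list at an unadjusted p under 0.05 numbered 5, with 7.57% of all genes at such a p, and 7 under the replicate block, with 5.87%. The median log2 fold change of the list was 0.005 to 0.065 with 1 library left out, the lowest without WT replicate 2. The replicate numbers are not stated to pair the libraries, and deviations of same-numbered libraries correlated at 0.058 and 0.002; under the replicate block Acat2 stood at −0.004, Hmgcs1 at 0.002, Cyp51 at 0.013, Scap at −0.001 and Lrp1 at −0.009. With 1 library left out, the log2 fold changes that turned ranged from −0.009 to 0.084 for Acat2, −0.094 to 0.044 for Hmgcs1, −0.199 to 0.071 for Idi1, −0.011 to 0.052 for Fdps, −0.089 to 0.031 for Cyp51, −0.18 to 0.065 for Tm7sf2, −0.011 to 0.085 for Msmo1, −0.05 to 0.037 for Nsdhl, −0.125 to 0.016 for Sc5d, −0.016 to 0.096 for Scap, −0.04 to 0.06 for Insig2, −0.051 to 0.191 for Mylip, −0.023 to 0.053 for Npc2, −0.016 to 0.16 for Lrp1, −0.063 to 0.264 for Nr1h3, −0.248 to 0.025 for Soat1 and −0.006 to 0.066 for Scd2. With 1 KO library left, it is assumed to vary like the WT libraries. The cause of these shifts was not tested. Counts of 56 to 78828 per gene and library lie behind the list, and the 5 libraries set the precision.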
